A study of Mus musculus with 3 samples.

Results

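Immunoglobulin genes were examined on 3 Affymetrix whole-transcript arrays of mouse thymocytes, T cells still developing in the thymus. The members were all probe sets annotated to at least 1 variable, diversity, joining or constant gene of the immunoglobulin heavy, kappa or lambda locus, and they numbered 31 of the 35556 probe sets on the array. The study profiled wild type thymocytes from a mouse aged 12 weeks, β-catenin transgenic thymocytes from a mouse aged 16 weeks and TCF-1-/- thymocytes, which lack TCF-1, from a mouse aged 8 weeks, with 1 array for each. Its stated aim was to find candidate targets of TCF-1, a transcription factor of T cells, and of its partner β-catenin. The labels name no strain, no promoter of the transgene and no kind of TCF-1 mutation. The labels describe strained thymocyte suspensions and mention no sort or gate.

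There was no replicate, so the values carry no error and no difference below was tested. Values are the deposited values, taken as log2, and differences are in log2 units. A difference of 1 or more, which is 2-fold, was the rule of size for calling a probe set higher or lower. Genotype, age, any difference of sex and individual animal cannot be told apart. Xist, the RNA of the inactive X chromosome, also differed between the animals (12.49 on the wild type, 4.86 on the transgenic and 12.17 on the TCF-1-/- array). All 13 measured thymocyte markers reached the median of all deposited values (6.66) on at least 1 array. So did 16 of 18 measured B lymphocyte genes, so reaching the median does not by itself identify the cells. Cd3e, the thymocyte marker of highest mean, was at 13.42 on the wild type, 13.34 on the transgenic and 13.05 on the TCF-1-/- array. Of these 13 markers, 5 were below and 1 above wild type by 2-fold or more on the TCF-1-/- array, and 0 differed by that much on the transgenic array. The 5 were Cd4 (-3.74), Cd8b1 (-2.10), Rag1 (-1.95), Cd8a (-1.45) and Rag2 (-1.44), and the 1 above was Ptcra (1.79). In such bulk samples, fewer cells of a type and less RNA per cell cannot be told apart.

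An immunoglobulin is built from heavy chains and light chains, the latter of kappa or lambda type. The RAG recombinase joins a variable (V) segment to a joining (J) segment, with a diversity (D) segment between them in the heavy chain, and the joined exon is spliced to a constant region exon. In mice most antibodies use kappa. B lymphocytes complete this process and plasma cells transcribe the joined genes at very high levels, whereas thymocytes, which use the same recombinase for T cell receptor genes, are known to make partial D to J joins in the heavy chain locus.

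The 31 probe sets comprised 10 of the heavy chain, 19 of the kappa chain and 2 of the lambda chain. They carried 30 different immunoglobulin symbols, all of which were found in the GRCm38.p6 gene table, where the same symbol rule matches 395 genes and segments. The table types 22 of the 30 as V segments, 2 as V pseudogenes (Ighv1-33 and Igkv4-77), 1 as a J segment and 5 as constant regions. By that table the heavy locus is on chromosome 12, the kappa locus on chromosome 6 and the lambda locus on chromosome 16. Close segments can share signal: 16 of the 31 probe sets were annotated to several symbols, and 19 shared at least 1 annotated transcript accession with another member. Joined through such shared accessions, the 31 fell into 19 groups, the largest holding 7 kappa probe sets. All 10 heavy probe sets carried a constant region symbol, and 4 of them also carried V segment symbols. Since symbols of both kinds stand on 1 probe set, a constant region symbol does not show which exon the probes match.

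Kappa chain probe sets were most often highest on the transgenic array. Of 19 kappa probe sets, 10 had their highest value there, 4 on the TCF-1-/- array and 1 on the wild type array, 1 was tied between the transgenic and TCF-1-/- arrays, and 3 were identical on all 3 arrays. The 19 form only 11 groups by shared accessions. The share of all probe sets highest on each array was not counted, so 10 of 19 has no background beside it. Against wild type, the transgenic array had 5 kappa probe sets higher by 2-fold or more and 0 lower. These were also the only members of any chain that were higher, so that 5 of 31 members (16.1%) were higher, beside 0.267% of all probe sets and 0.171% of probe sets with a symbol. The kappa median difference was 0.36, with quartiles of 0 and 1.03, and the median over all probe sets was 0. The median depends on the probe sets taken: it was 0 over the 9 kappa probe sets with a single symbol, 1 of which was among the 5, while the mean over all 19 was 0.67. With probe sets of shared accessions averaged, the 5 higher members became 3.

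**Figure D1:**
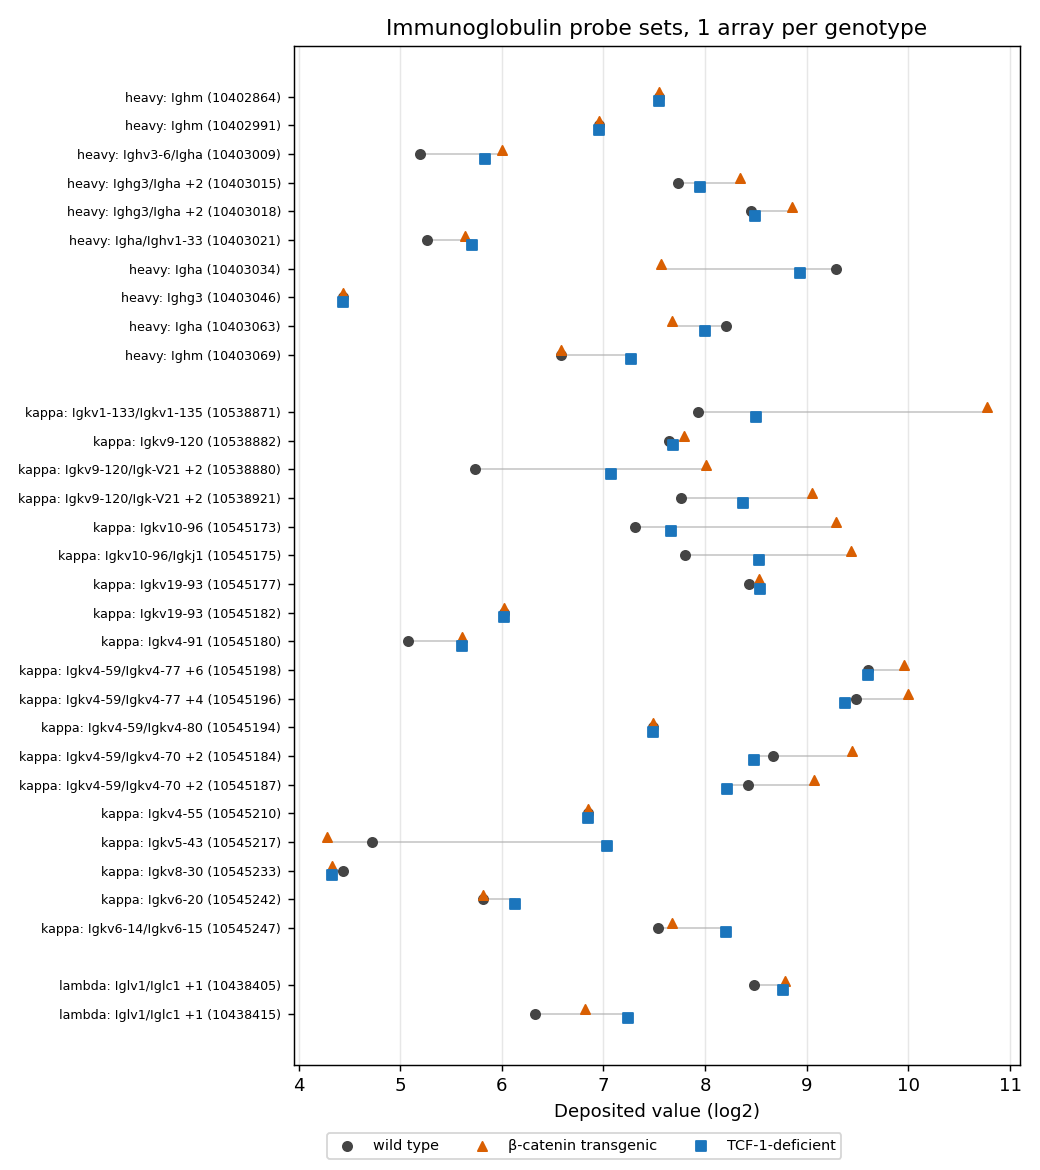
Deposited log2 value (horizontal axis) of each of the 31 immunoglobulin probe sets (rows, grouped by chain, with the probe set number in brackets) on the wild type (circle), β-catenin transgenic (triangle) and TCF-1-/- (square) arrays. Labels such as "+2" give the number of further annotated symbols. A circle covered by the other symbols marks identical or close values. The transgenic array lies farthest right for 10 of 19 kappa probe sets, while the Igha probe set 10403034 is lowest there.

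The largest kappa difference was in the probe set annotated to the V segments Igkv1-133 and Igkv1-135 (10538871). Its value was 7.93 on the wild type, 10.77 on the transgenic and 8.50 on the TCF-1-/- array. The transgenic array thus stood 7.15-fold above wild type, and the TCF-1-/- array 1.48-fold above it. V segments encode most of the antigen-binding part of the chain, and members of 1 V family are close in sequence, so the signal cannot be assigned to either segment.

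Probe sets of Igkv10-96 gave a like picture. The one annotated to Igkv10-96 alone (10545173) had values of 7.31, 9.29 and 7.67 on the wild type, transgenic and TCF-1-/- arrays, in that order, a transgenic difference of 1.97. Its neighbour annotated to Igkv10-96 and the joining segment Igkj1 (10545175) had values of 7.80, 9.43 and 8.53, a transgenic difference of 1.63. Both were highest on the transgenic array and lowest on the wild type array. They share annotated accessions and are not independent readings.

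Another pair was annotated to Igkv9-120, Igkv1-117 and the older symbol Igk-V21. Both also carry the symbol Map3k20, a kinase gene on chromosome 2, so part of their signal may come from outside the immunoglobulin loci. The first (10538880) had values of 5.74, 8.01 and 7.08, and its wild type value lay below the median of all deposited values, which makes the size of its fold uncertain. It was the only member beyond 2-fold against wild type on both other arrays, by 2.28 on the transgenic and 1.34 on the TCF-1-/- array. The second (10538921) had values of 7.76, 9.05 and 8.38, higher by 1.29 and 0.61. A further probe set annotated to Igkv9-120 alone (10538882) was nearly level, at 7.65, 7.79 and 7.68.

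The kappa constant region symbol Igkc occurred on 4 probe sets, each of which also named several Igkv4 segments. In the first (10545184) the values were 8.67 on the wild type, 9.45 on the transgenic and 8.48 on the TCF-1-/- array. In the same order of arrays, the second (10545187) was at 8.43, 9.07 and 8.22. The third (10545196) was at 9.49, 9.99 and 9.38, and the fourth (10545198) at 9.60, 9.96 and 9.60. All 4 were above wild type on the transgenic array, by 0.36 to 0.78, and 0 of the 4 reached 2-fold. On the TCF-1-/- array 3 were lower than wild type, by 0.11 to 0.21, and 1 was identical. The Igkc probe sets were therefore ordered with the transgenic array on top and the other arrays close together, and all 4 belong to the group of 7 joined by shared accessions.

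The other kappa V segments included 1 with the opposite order. Igkv5-43 (10545217) was at 4.72 on the wild type, 4.28 on the transgenic and 7.04 on the TCF-1-/- array. The TCF-1-/- array was 4.98-fold above wild type, but the values on the wild type and transgenic arrays were below the median of all deposited values, so this fold is uncertain. Igkv6-14/Igkv6-15 (10545247) was also highest on the TCF-1-/- array, at 8.21 against 7.54 and 7.68 on the others. Igkv6-20, at 5.82, 5.82 and 6.13, did not reach the median on any array, nor did Igkv4-91 (5.07, 5.61 and 5.61), Igkv8-30 (4.43, 4.33 and 4.33) and 1 of the probe sets of Igkv19-93 (6.02). Igkv4-55, that probe set of Igkv19-93 and Igkv4-59/Igkv4-80 had identical values on the 3 arrays. The other Igkv19-93 probe set (10545177) ranged only from 8.44 to 8.54.

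Place in the locus was compared with the differences by ordering the kappa probe sets by the mean distance of their V segments from Igkj1 in GRCm38.p6. J and constant region symbols were not used for this order. The 6 probe sets placed farthest from the J segments ran from Igkv1-133/Igkv1-135 to Igkv10-96. They include the probe set annotated to both Igkv10-96 and Igkj1 (10545175), and which of these its probes match is not known. The 4 Igkc probe sets were likewise placed by their V symbols. Of these 6, the transgenic array had 5 that were higher by 2-fold or more, with a median difference from wild type of 1.80 and a range of 0.15 to 2.84. Of the 13 nearer the J segments, 0 were, with a median of 0.09 and a range of -0.44 to 0.78. This division was chosen after the values were seen, and it was not tested. The 5 probe sets reduce to 3 groups by shared accessions, so it rests on few separate readings.

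**Figure D2:**
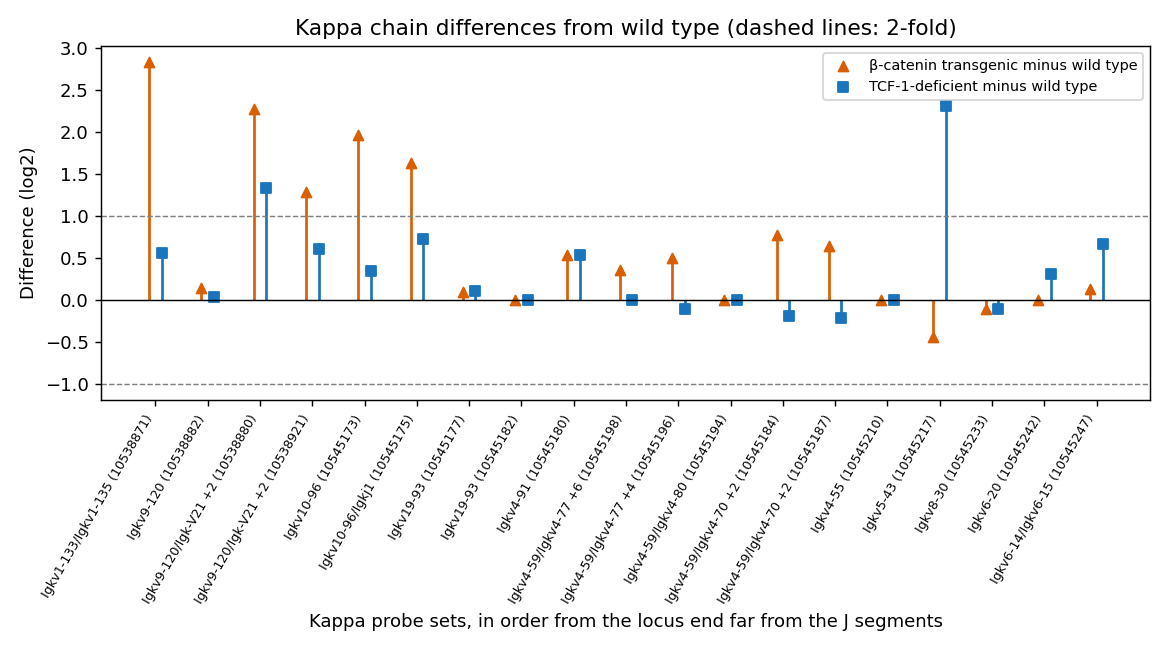
Difference from wild type in log2 units (vertical axis) of the 19 kappa probe sets (horizontal axis, ordered from the end of the locus far from the J segments), for the β-catenin transgenic (triangles) and TCF-1-/- (squares) arrays; dashed lines mark 2-fold. The 5 transgenic values above the upper line all lie among the 6 probe sets at the far end, and Igkv5-43 is the highest TCF-1-/- value at 2.32. Place was set by V segment symbols alone.

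The heavy chain showed no common direction. Of 10 probe sets, 3 were highest on the transgenic array, 3 on the TCF-1-/- array and 2 on the wild type array, and 2 were identical on all 3 arrays. The median difference from wild type was 0 on the transgenic and 0.02 on the TCF-1-/- array. On the transgenic array 1 of the 31 members (3.23%) was lower than wild type by at least 2-fold, beside 2.75% of all probe sets and 0.124% of those with a symbol.

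That member was annotated to Igha, the constant region of IgA, the antibody class of mucosal surfaces. This Igha probe set (10403034) was at 9.29 on the wild type, 7.57 on the transgenic and 8.93 on the TCF-1-/- array, so that the transgenic array stood 3.29-fold below wild type. The second probe set annotated to Igha alone (10403063) was at 8.20, 7.68 and 8.00, a transgenic difference of -0.53. Both were lowest on the transgenic array, and they share annotated accessions.

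Probe sets that name Igha together with other heavy chain symbols went the other way. The pair annotated to Ighg3, Igha, Ighv1-33 and Ighv1-26 had values of 7.74, 8.34 and 7.95 (10403015) and of 8.45, 8.85 and 8.49 (10403018), 0.61 and 0.40 above wild type on the transgenic array. The probe sets of this pair share annotated accessions. Ighv3-6/Igha (10403009) and Igha/Ighv1-33 (10403021) were 0.80 and 0.38 above wild type there. Both lay below the median of all deposited values on all 3 arrays. Of the 6 probe sets with the Igha symbol, 4 were thus higher and 2 lower on the transgenic array, 1 of them by 2-fold. No single level of IgA transcripts can be read from them.

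IgM, the first class a B cell makes, was represented by 3 probe sets of its constant region gene Ighm. One (10402864) was at 7.54 on all 3 arrays to the last digit. A second (10402991) was at 6.95, 6.95 and 6.96. The third (10403069) had the same value of 6.59 on the wild type and transgenic arrays and 7.27 on the TCF-1-/- array, a difference of 0.68. The Ighm probe sets were therefore level between the wild type and transgenic arrays, where several kappa probe sets differed by more than 2-fold. Ighg3 alone (10403046), an IgG constant region, was at 4.43 on all 3 arrays and did not reach the median of all deposited values. Identical values are common in the deposited table, in which 28.8% of probe sets have 1 value on all 3 arrays and 44.1% on the wild type and transgenic arrays, so they are not measured equalities of that precision.

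Lambda was represented by 2 probe sets with the same annotation, to the V segments Iglv1 and Iglv2 and the constant region Iglc1. The first (10438405) was at 8.48, 8.79 and 8.76, and the second (10438415) at 6.33, 6.82 and 7.24. Both were lowest on the wild type array, and the second was 0.91 higher on the TCF-1-/- array. Neither reached 2-fold in any comparison, and they share annotated accessions.

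Without TCF-1, 2 of the 31 members (6.45%) were higher than wild type by at least 2-fold, 10538880 and Igkv5-43, beside 1.24% of all probe sets and 1.38% of those with a symbol. None of the 31 was lower, beside 8.71% of all probe sets and 2.8% of those with a symbol. The median differences from wild type were 0.11 for kappa, 0.02 for heavy and 0.60 for lambda. Of the 31, 19 lay above wild type, 6 below it and 6 were identical. Over all probe sets the median difference was 0 and 31.3% were identical to wild type, while the share above it was not counted.

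The transgenic and TCF-1-/- arrays were also set against each other. On the transgenic array 2 members were higher by at least 2-fold, Igkv1-133/Igkv1-135 (2.28) and Igkv10-96 (1.62), beside 5.06% of all probe sets and 2.46% of those with a symbol. There, 2 were lower, Igkv5-43 (-2.76) and the Igha probe set 10403034 (-1.36), beside 1.64% and 1.62%. Both shares are 6.45% of the members. The kappa median was 0.11 with an upper quartile of 0.88, the heavy median 0.00 and the lambda median -0.20.

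Transcripts of B lymphocytes were measured beside the immunoglobulin genes. Of 18 measured B lymphocyte genes, 17 were highest on the TCF-1-/- array, and 7 exceeded wild type by 2-fold or more there, with a median difference of 0.95. On the transgenic array 0 of the 18 differed by 2-fold from wild type, with a median of 0.14. Cd79a, which encodes a signalling chain of the B cell receptor, was at 6.99 on the wild type, 7.96 on the transgenic and 9.52 on the TCF-1-/- array. Its partner Cd79b was at 9.61, 9.74 and 10.06. Ms4a1, which encodes CD20, was at 6.13, 6.50 and 7.77. Pax5 and Ebf1, transcription factors of the B lineage, were higher on the TCF-1-/- array by 0.75 and 0.95 and differed by -0.02 and 0.10 on the transgenic array. The other members of this list beyond 2-fold were Blk (2.99), Fcmr (1.86), Bank1 (1.52), Fcer2a (1.52) and Spib (1.10), all on the TCF-1-/- array. Summed over the list on the linear scale, the values came to 6271, 7166 and 9825 in the same order of arrays. Without Cd37, its gene of highest mean, the sums were 3684, 4298 and 7991. On the transgenic array 13 of the 18 genes also lay above wild type, the highest being Cd79a (0.97) and Fcmr (0.63). The 6 far-end kappa probe sets were a group chosen after the values were seen. That choice used the same wild type array, so their TCF-1-/- differences are not independent of it. On the TCF-1-/- array all 6 lay above wild type. Of the other 13 kappa probe sets, 5 lay above wild type there, 4 below it and 4 were identical. Of the 4 Igkc probe sets among these, 0 lay above it and 3 below. The part of B lymphocytes in the immunoglobulin signal was not tested.

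Plasma cell genes were divided. Jchain, whose product links IgA dimers and IgM pentamers, was at 7.65 on the wild type, 8.35 on the transgenic and 7.35 on the TCF-1-/- array. This was the same order as 3 of the 4 Igkc probe sets, while both probe sets annotated to Igha alone were lowest on the transgenic array. Of 9 measured plasma cell genes, 0 were beyond 2-fold on the transgenic array. There 3 lay above wild type, 1 below it and 5 were identical to it, with a median difference of 0. On the TCF-1-/- array Sdc1, a surface proteoglycan, was higher by 2.10, and Xbp1, a factor of the secretory programme that other cells also express, was lower by 1.01. Prdm1, the regulator of plasma cell differentiation, was identical on the 3 arrays at 6.10. Summed on the linear scale, the list stood at 2945, 3544 and 2171 on the wild type, transgenic and TCF-1-/- arrays, and most of the first and second sums came from Xbp1. Without Xbp1 the other 8 genes summed to 809, 940 and 1111, and the highest array became the TCF-1-/- one. That order leans on Sdc1, at 6.22, 6.38 and 8.32 on the 3 arrays. Against wild type, the TCF-1-/- array had 4 of the 9 genes above, 2 below and 3 identical, with a median difference of 0. The part of these cells in the kappa and Igha values was not tested.

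**Figure D3:**
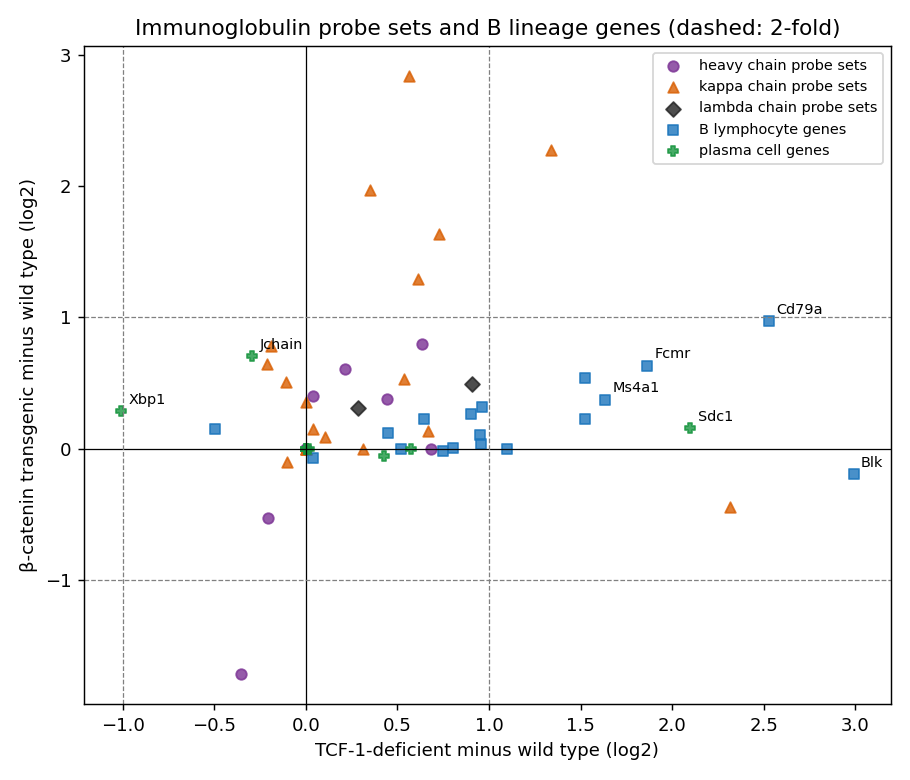
Difference of the TCF-1-/- array from wild type (horizontal axis) against the difference of the transgenic array from wild type (vertical axis), both in log2 units, for heavy (circles), kappa (triangles) and lambda (diamonds) probe sets, B lymphocyte genes (squares) and plasma cell genes (crosses); dashed lines mark 2-fold, and both axes share the wild type array. The 5 kappa probe sets above the upper line hold transgenic differences of 1.29 to 2.84, and 7 B lymphocyte genes lie right of the right-hand line.

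Genes of immunoglobulin assembly were compared next. The surrogate light chain genes Igll1 and Vpreb1, which pair with the heavy chain in B cell precursors, were at 6.58, 6.58 and 6.79 and at 6.17, 6.23 and 6.23. Over the 10 genes of the precursor list, which includes these and the recombinase genes, 2 were higher (Bst1 by 3.58 and Cd93 by 1.88) and 2 lower on the TCF-1-/- array, and 0 differed by 2-fold on the transgenic array. The 2 lower genes were Rag1 (-1.95) and Rag2 (-1.44), which encode the recombinase. They were the 2 of 9 recombination genes beyond 2-fold, and Dntt, which adds nucleotides at the joins, differed by -0.43. Of 5 measured genes of class switching and germinal centres, Bcl6 (-2.58) and Fas (-2.60) were lower on the TCF-1-/- array, and both are also expressed by thymocytes. Of 8 myeloid genes, which include receptors that bind antibody, Lyz2 (1.12) was the 1 beyond 2-fold on the TCF-1-/- array and 0 were on the transgenic array.

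T cell receptor segments, which the same recombinase joins, were compared with the immunoglobulin segments. Of 52 probe sets annotated to them, 40 were below and 4 above wild type by 2-fold or more on the TCF-1-/- array. Their median difference was -1.55. Of the 31 immunoglobulin probe sets, 0 were lower there. The shares lower were 8.71% of all probe sets and 2.8% of those with a symbol, so 0 of 31 is near the latter. The shares higher were 1.24% and 1.38%. On the transgenic array 0 of the 52 differed by 2-fold, with a median of 0.11, against the 5 higher kappa probe sets and the 1 lower Igha probe set. Of all probe sets, 0.267% were higher and 2.75% lower there. Among those with a symbol, 0.171% were higher and 0.124% lower. The 1 lower of 31 (3.23%) is thus near the share over all probe sets and above the share over those with a symbol. With 1 array per genotype these contrasts between the receptor families were not tested.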

How the data were processed

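The deposited table gives 1 log2 value per probe set and array for 3 arrays of biotin-labelled thymocyte RNA. RMA and Partek were used, per the submitters' processing notes. The labels and the table name no versions, settings, probe sequences or genome build, and no header states the log base, which was taken from the range of the deposited values (1.73 to 14.8). The authors' normalisation was kept. Array medians were 6.73 (wild type), 6.65 (transgenic) and 6.60 (TCF-1-deficient).

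Symbols came from the platform annotation, which lists 23410 of the 35556 probe sets, 1621 of them with several symbols; the other 12146 are unnamed here. Probe sets were kept separate. Gene order and chromosomes came from GRCm38.p6. For listed genes outside the immunoglobulin loci, the probe set with 1 symbol and the highest mean was used.

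The members, gene lists and naming rule were chosen with earlier results of these data known. The rule named all constant region probe sets, the 10 with the highest mean, the 8 with the largest difference in each direction and comparison with wild type that reached the median of all values, and those beyond 2-fold in both; other members are described for completeness. With 1 array per genotype, precision is limited by the number of arrays. The calling rule was checked on simulated data with known differences, which is no test of the deposited data. Alternatives were thresholds of 1.5-fold and 3-fold, centring on array medians, removal of a loess trend (span 0.3), a filter on dim probe sets, single-symbol probe sets, means, and averaging of probe sets with the same symbols. Other alternatives, averaging over shared accessions, leaving out identical values and leaving the gene of highest mean out of summed lists, were chosen after seeing the data. The software was Python 3.11.15, NumPy 2.4.6, pandas 2.3.3, statsmodels 0.14.6 and matplotlib 3.10.9.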

Additional observations from a re-analysis of the deposited data

How the results depend on the processing

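No paired analysis was possible because each genotype has 1 array. With 1 array the alternatives show how far a value depends on the processing, not on the animals. A median was taken to move at a change of 0.1 in log2 units, and a count at a change of more than 1.5 times. By this rule 46 of the 68 alternative values stayed close to the reported one and 22 moved. The number of members higher on the transgenic array (5) became 9 at 1.5-fold, 3 with 1 value per shared-accession group and 1 with single-symbol probe sets, the last by construction since 4 of the 5 carry several symbols. The number higher on the TCF-1-deficient array (2) became 8 at 1.5-fold, 3 with centring and 1 at 3-fold, with single-symbol probe sets and with shared-accession groups. The kappa median on the transgenic array (0.36) became 0.50 without dim probe sets, 0.53 without identical values, 0.67 as a mean, 0.25 with same-symbol probe sets averaged and 0 with single-symbol probe sets. On the TCF-1-deficient array it moved from 0.11 to 0.24 with centring, 0.35 without identical values and 0.37 as a mean. The heavy median there moved from 0.02 to 0.15 with centring, 0.13 without identical values 0.15 as a mean and 0.18 with same-symbol probe sets averaged, and on the transgenic array from 0 to 0.39 without identical values and 0.19 with same-symbol averaging. The lambda median on the TCF-1-deficient array moved from 0.60 to 0.73 with centring. Centring adds 0.13 to every TCF-1-deficient and 0.08 to every transgenic difference from wild type. Both lambda probe sets carry several symbols, so no single-symbol value exists for lambda.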
